A study of Brassica rapa subsp. pekinensis with 6 samples.

Results

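The 9 genes described here are the copies of 3 flowering-time genes in Chinese cabbage (Brassica rapa subsp. pekinensis): 4 copies of FLC, 3 of SOC1 and 2 of FT. They were chosen by identifier, as Bra009055 (FLC1), Bra028599 (FLC2), Bra006051 (FLC3) and Bra022771 (FLC5), as Bra000393, Bra004928 and Bra039324 for SOC1, and as Bra004117 and Bra022475 for FT. The gene names come with that choice, because the deposited tables hold identifiers only. All 9 were read in each of the 6 libraries, out of 35421 genes read in any library. RNA came from flower buds of plants in full bloom, with 3 libraries of the male sterile mutant msm (numbered 1, 2 and 3) and 3 of its wild type (1, 2 and 4). That wild type is a line which also bears the name 'FT'; below, FT means the gene. The labels give no mutated gene for msm and no plant age, and do not state that libraries of 1 genotype stem from different plants. All p-values here therefore rest on the scatter of these libraries, part or all of which can be technical.

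FLC encodes a MADS-box transcription factor that represses flowering, and prolonged cold silences it. In Arabidopsis its protein binds FT and SOC1 and keeps them low. FT encodes a small mobile protein, made in the veins of leaves, that moves to the shoot tip and promotes flowering there. SOC1 encodes another MADS-box transcription factor, which gathers signals from several flowering pathways and promotes the switch to flowers. The ancestor of Brassica rapa multiplied its genome after it split from the lineage of Arabidopsis, and many genes kept several copies.

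Uniquely assigned reads averaged 25534727 ± 600111 per msm library and 25156752 ± 216956 per wild-type library (SD, n = 3 each). Levels are the authors' RPKM, which are reads scaled to the coding length and to the total of the library. Copies of unlike length can thus be compared, except that reads fitting several copies are not counted. Fold changes are msm over wild type, with TMM scaling (a library factor that discounts genes with extreme changes). The factors were 1.07 to 1.08 in msm libraries and 0.925 to 0.929 in wild-type libraries. With scaling by total reads, as in RPKM, the median log2 fold change of all tested genes was 0.22, against 0.005 with TMM, so a difference in RPKM lies above the TMM value. None of the 15 markers of flower organs, anthers and leaves that had been listed matched a deposited identifier, so the labelled tissue was not checked by markers, and none of the 41 other listed flowering genes matched either.

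The FT copies moved in opposite directions in msm, while 2 of 3 SOC1 copies rose and 1 of the 2 well-read FLC copies fell by less than 2-fold. The filter on low counts kept 7 of the 9 genes, leaving out FLC3 and FLC5. At an adjusted p below 0.05 and at least 2-fold (edgeR's quasi-likelihood test with Benjamini-Hochberg adjustment over 29104 genes), 1 of the 7 was higher in msm and 1 was lower. Over all tested genes the shares were 4.64% higher and 12.5% lower, or 17.2% in either direction. At the adjusted p alone, 3 of the 7 were higher and 2 were lower, against 26.8% and 30.1% of all tested genes, so a change of that kind was common in these buds (56.9% in either direction). The median log2 fold change was 0.18 over the 7 copies and 0.005 over all tested genes.

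**Figure D1:**
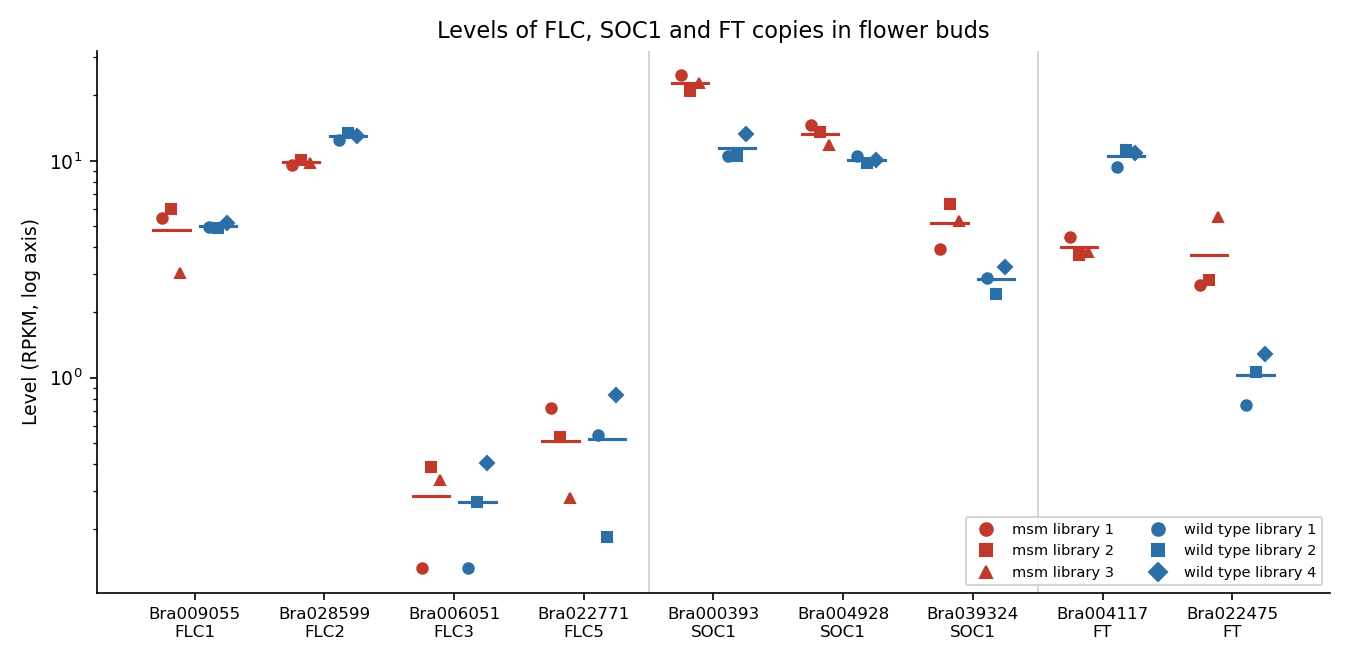
Levels in RPKM (log axis) of the 9 copies in each library, msm in red and wild type in blue, with symbols for the library numbers and bars for the group means. The FT copies Bra004117 and Bra022475 lie apart by group in opposite directions, and FLC3 and FLC5 lie below 1 RPKM in both groups.

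Bra004117, the more strongly read FT copy of the wild type, fell in msm. Its level was 4.47, 3.69 and 3.79 RPKM in msm 1, 2 and 3, against 9.32, 11.3 and 10.8 RPKM in wild type 1, 2 and 4. All msm libraries lay below all wild-type libraries. The share of all genes whose groups lie apart in this way was not counted, here or for the copies below. Means were 3.98 ± 0.425 RPKM in msm and 10.5 ± 1.02 RPKM in wild type (SD, n = 3 each). The log2 fold change was -1.61 with a standard error of 0.17 (95% interval -1.96 to -1.26, adjusted p = 2.38e-09 in edgeR), which is 3.05-fold lower. Of all tested genes, 9.24% had a change as low or lower. In RNA from whole buds, fewer cells that express a gene and less of its RNA per cell cannot be told apart.

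Bra022475, the FT copy with few reads in the wild type, rose in msm. The reads numbered 36, 39 and 73 in msm 1, 2 and 3, or 2.68, 2.82 and 5.53 RPKM. In wild type 1, 2 and 4 it had 10, 14 and 17 reads, or 0.746, 1.06 and 1.29 RPKM. The groups did not overlap, and msm 3 stood well above the other msm libraries. On the log2 scale the fold change was 1.61 with a standard error of 0.34 (95% interval 0.91 to 2.30, adjusted p = 0.000176 in edgeR), or 3.05-fold higher, a size reached by 2.2% of the tested genes. Without msm 3 it was 1.20, with an adjusted p of 0.00909, and the gene was still called.

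The balance between the FT copies did not overlap between the groups. Both have a coding length of 528 bases, so length does not enter the ratio of their reads. Reads that fit both copies are not in the counts, so the ratio within a group is approximate. Bra004117 had 1.67, 1.31 and 0.685 reads for each read of Bra022475 in msm 1, 2 and 3, against 12.5, 10.6 and 8.41 in wild type 1, 2 and 4. In msm 3 the order of the copies was turned round. The mean log2 ratio was 0.19 ± 0.66 in msm and 3.38 ± 0.29 in wild type (SD, n = 3 each), a difference of -3.18, so that the ratio was 9.08-fold smaller in msm. The exact two-sided permutation p was 0.1, the smallest that 3 libraries against 3 allow. After adjustment over the 10 pairs of copies compared it was 0.5. The ratio is built from the same reads as the fold changes of the FT copies above, so it is no separate support for them. The share of gene pairs whose ratios lie apart by group was not counted, here or for the SOC1 copies. Bra022475 made up 37.5%, 43.3% and 59.3% of the summed FT level in msm 1, 2 and 3, against 7.41%, 8.59% and 10.6% in wild type 1, 2 and 4. The summed level of both copies was 7.66 ± 1.47 RPKM in msm and 11.5 ± 1.25 RPKM in wild type (SD, n = 3 each), without overlap. The sum alone does not show that the copies moved in opposite directions.

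**Figure D2:**
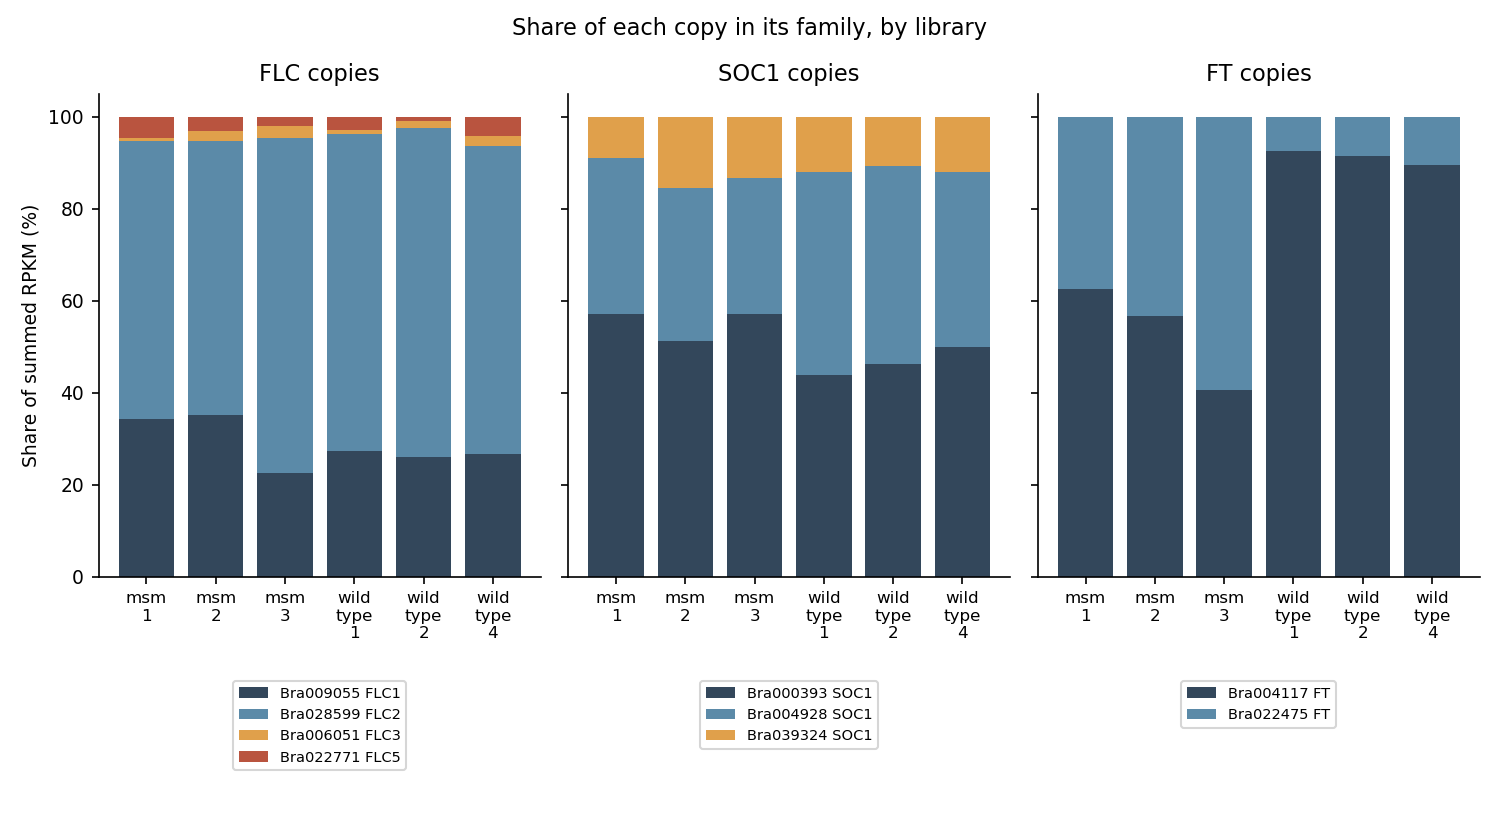
Share (%) of each copy in the summed RPKM of its family, 1 bar per library, msm libraries on the left of each panel and wild-type libraries on the right. Bra022475 holds 37.5% to 59.3% of the FT level in msm libraries and 7.41% to 10.6% in wild-type libraries, whereas FLC2 is the larger part of FLC in every library.

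Among the SOC1 copies, Bra000393 had the highest level and rose in msm. It reached 24.7, 20.9 and 22.7 RPKM in msm 1, 2 and 3, against 10.5, 10.5 and 13.3 RPKM in wild type 1, 2 and 4. The groups did not overlap. The log2 fold change was 0.78 with a standard error of 0.11 (95% interval 0.54 to 1.01, adjusted p = 1.03e-06 in edgeR), which is 1.71-fold and under the 2-fold threshold. With total-count scaling it was 0.99. Its place among all read genes was at the 70.03 to 73.7 percentile of RPKM in msm libraries and at the 55.5 to 61.5 percentile in wild-type libraries.

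Bra039324, the SOC1 copy with the lowest level, also rose, with less certainty. Its level was 3.92, 6.31 and 5.30 RPKM in msm 1, 2 and 3, against 2.88, 2.42 and 3.24 RPKM in wild type 1, 2 and 4. The msm libraries all lay above the wild-type libraries but were spread more widely. Its log2 fold change was 0.65 with a standard error of 0.21 (adjusted p = 0.0114 in edgeR). Leaving out msm 2 gave 0.47 with an adjusted p of 0.0916, and leaving out wild type 2 gave 0.53 with an adjusted p of 0.0681, so either library decides whether the gene passed.

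Bra004928, the remaining SOC1 copy, did not pass the test. Its level was 14.6, 13.6 and 11.8 RPKM in msm 1, 2 and 3, against 10.5, 9.75 and 10.1 RPKM in wild type 1, 2 and 4. These levels did not overlap on the RPKM scale, but the log2 fold change with TMM scaling was 0.18 with a standard error of 0.12 (95% interval -0.07 to 0.44, adjusted p = 0.21 in edgeR). With total-count scaling it was 0.40 with an adjusted p of 0.00594, beside a median of 0.22 over all genes, so whether this copy passes rests on the scaling.

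Bra000393 and Bra004928 had similar levels in wild type, and Bra000393 was the higher in every msm library. Both have a coding length of 642 bases. Bra000393 had 1.69, 1.54 and 1.92 reads for each read of Bra004928 in msm 1, 2 and 3, against 1, 1.08 and 1.32 in wild type 1, 2 and 4. The mean log2 ratio was 0.77 ± 0.16 in msm and 0.17 ± 0.21 in wild type (SD, n = 3 each), and the groups did not overlap (exact permutation p = 0.1, the smallest possible; 0.5 adjusted over the 10 pairs). A ratio within a library does not depend on scaling. The ratios of Bra039324 to these copies overlapped between the groups, with exact permutation p-values of 0.8 (to Bra000393) and 0.3 (to Bra004928). The summed SOC1 level was 41.3 ± 1.78 RPKM in msm and 24.4 ± 2.06 RPKM in wild type (SD, n = 3 each).

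**Figure D3:**
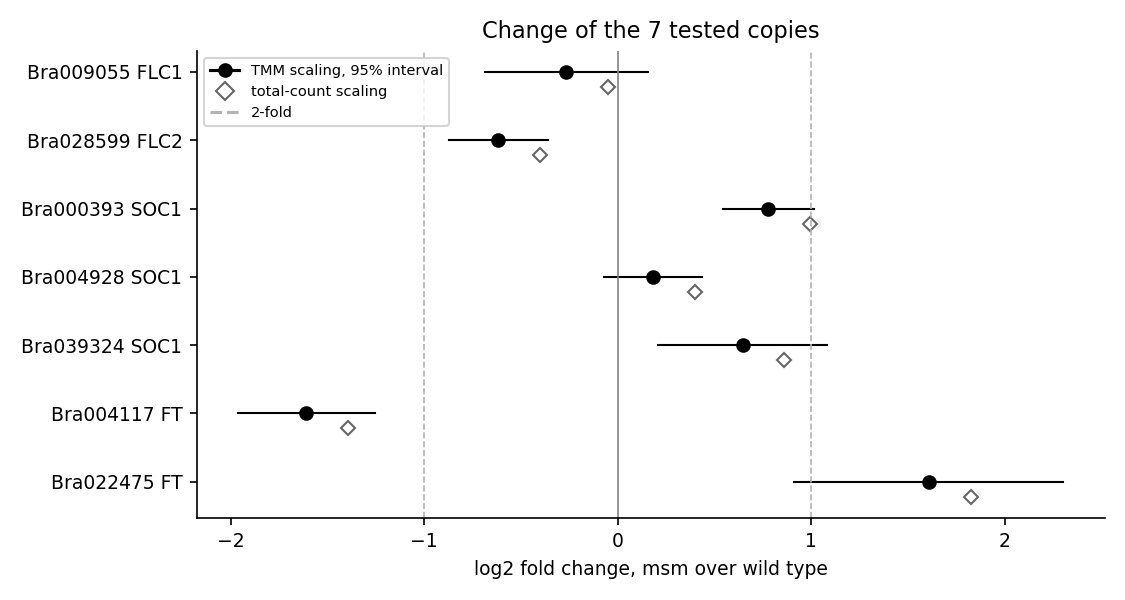
Log2 fold changes (msm over wild type) of the 7 tested copies, with TMM scaling as filled points and 95% intervals, and total-count scaling as open diamonds; dashed lines mark a 2-fold change. The FT copies lie at -1.61 and 1.61, and the intervals of FLC1 and of the SOC1 copy Bra004928 span 0.

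FLC2 (Bra028599), the strongest FLC copy, fell in msm by less than 2-fold. Its level was 9.58, 10.1 and 9.82 RPKM in msm 1, 2 and 3, against 12.5, 13.4 and 13.0 RPKM in wild type 1, 2 and 4. The groups did not overlap and each was narrow. Its log2 fold change was -0.62 with a standard error of 0.13 (95% interval -0.87 to -0.36, adjusted p = 0.000104 in edgeR), or 1.53-fold lower. It was -0.40 with total-count scaling, still with an adjusted p of 0.00634. Of all tested genes, 17.3% had a change as low or lower.

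FLC1 (Bra009055) did not pass the test. Its level was 5.45, 5.97 and 3.03 RPKM in msm 1, 2 and 3, against 4.94, 4.88 and 5.15 RPKM in wild type 1, 2 and 4. The msm libraries lay on both sides of the wild type, with msm 3 lowest of all. Its log2 fold change was -0.27 with a standard error of 0.21 (95% interval -0.69 to 0.16, adjusted p = 0.281 in edgeR). Without msm 3 it was -0.02 (adjusted p = 0.938). The library with the lowest FLC1 level was also the one with the highest level of the FT copy Bra022475, an observation on 1 library. In that library FLC2 (9.82 RPKM) lay between its levels in msm 1 and 2 (9.58 and 10.1 RPKM). So did the other FT copy, Bra004117 (3.79 RPKM, against 4.47 and 3.69 RPKM). A link between these levels was not tested.

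FLC3 (Bra006051) and FLC5 (Bra022771) were near the limit of detection in both groups. FLC3 had 2, 6 and 5 reads in msm 1, 2 and 3, against 2, 4 and 6 in wild type 1, 2 and 4. The counting intervals (exact Poisson, 95%) of its level ran from 0.016 to 0.84 RPKM over the msm libraries and from 0.0161 to 0.88 RPKM over the wild-type libraries. FLC5 had 8, 6 and 3 reads in msm 1, 2 and 3, against 6, 2 and 9 in wild type 1, 2 and 4. Its intervals ran from 0.0573 to 1.44 RPKM over the msm libraries and from 0.0224 to 1.58 RPKM over the wild-type libraries. In an edgeR fit with no filter on low counts the log2 fold changes were -0.13 ± 0.83 for FLC3 and -0.24 ± 0.72 for FLC5 (standard errors; adjusted p = 0.915 and 0.808), so a difference was not detectable at this depth.

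Within FLC the copies kept a wide range of levels in both groups. FLC2 was 2.13-fold above FLC1 in msm and 2.6-fold above it in wild type (geometric means). In the 6 libraries, reads covered 76.01% to 78.7% of the coding length of FLC1 and 98.5% to 99.8% of that of FLC2. Reads that fit several copies are not in the counts either, so ratios, shares and sums of the FLC copies are approximate. The level of FLC2 was 13.2, 19.0 and 35.3 times that of FLC5 in msm 1, 2 and 3, against 22.9, 72.7 and 15.6 times in wild type 1, 2 and 4. It was 72.4, 26.1 and 29.1 times that of FLC3 in msm 1, 2 and 3, against 94.5, 50.0 and 32.2 times in wild type 1, 2 and 4. With so few reads of FLC3 and FLC5 these ratios scatter widely, and the order of the groups for FLC2 over FLC5 turns round without wild type 2. FLC2 and FLC1 made up 64.2% ± 7.56 and 30.6% ± 7.07 of the summed FLC level in msm, against 69.2% ± 2.27 and 26.6% ± 0.618 in wild type (SD, n = 3 each). In all 6 pairs of FLC copies the log2 ratios overlapped between the groups, with exact permutation p-values from 0.4 to 1. The summed FLC level was 15.4 ± 1.80 RPKM in msm and 18.8 ± 0.623 RPKM in wild type (SD, n = 3 each).

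**Figure D4:**
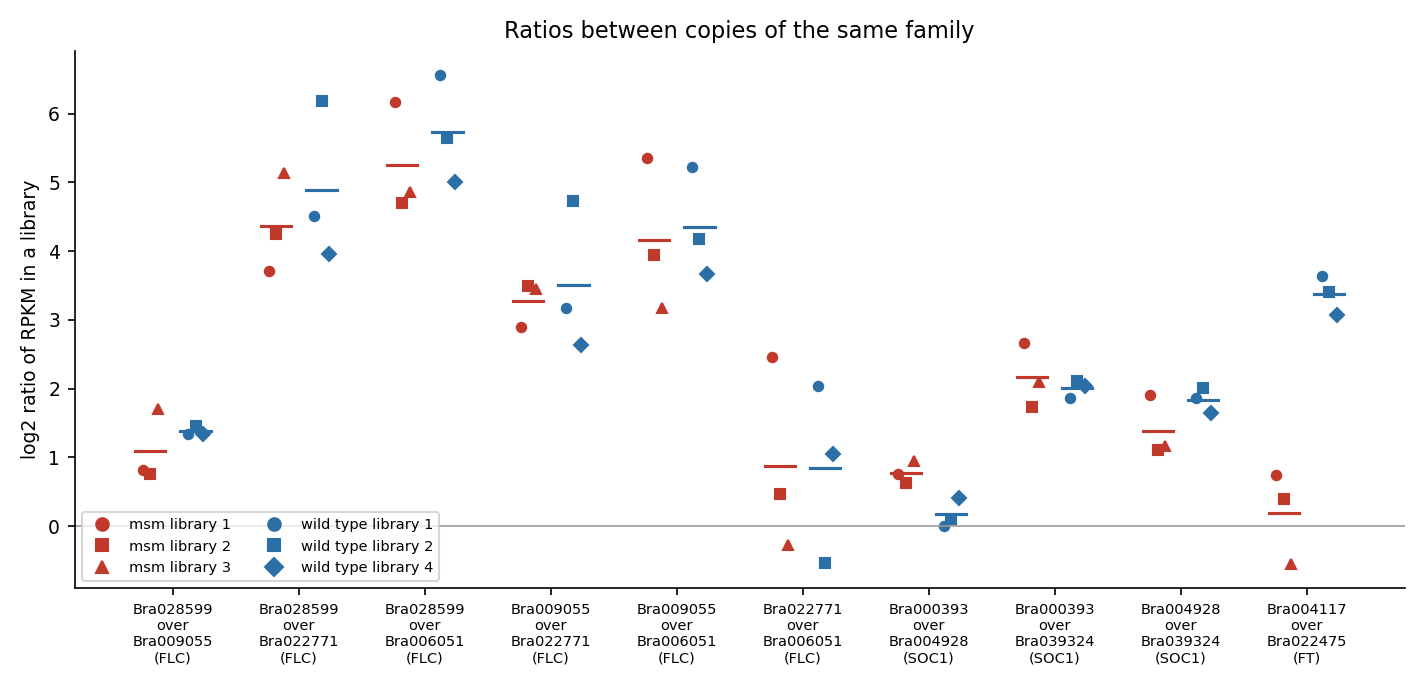
Log2 ratio of RPKM between copies of a family in each library, for the 10 pairs, msm in red on the left and wild type in blue on the right, with bars for the means. The ratio of the FT copies and that of Bra000393 over Bra004928 do not overlap between the groups, and the 6 FLC pairs do.

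Set against each other, the copies stood in another order in each group. In msm the SOC1 copies Bra000393 and Bra004928 and then FLC2 led, each without overlap with the next. Bra039324, FLC1, Bra004117 and Bra022475 followed, each overlapping the next, and FLC5 and FLC3 came last, overlapping each other. In wild type FLC2, Bra000393, Bra004117 and Bra004928 came first, each overlapping the next. FLC1, Bra039324 and Bra022475 followed without overlap between neighbours, then FLC5, which overlapped both Bra022475 and FLC3. The summed SOC1 level was 2.73, 2.40 and 2.96 times the summed FLC level in msm 1, 2 and 3, against 1.31, 1.21 and 1.38 times in wild type 1, 2 and 4, without overlap. The summed FT level was 0.45, 0.384 and 0.693 times the FLC level in msm 1, 2 and 3, against 0.555, 0.656 and 0.625 times in wild type, with overlap. These sums are given as a description, with no test.

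The deposited coverage, the part of the coding length that reads touch, bears on how well a copy was read. FLC2, Bra000393 and Bra004928 were covered over 97.5% to 99.8% of their length in every library. Bra004117 was covered over 92.6% to 98.1%, and Bra022475 over 94.9% to 98.1% in msm libraries and 75.4% to 97.4% in wild-type libraries, where it had at most 17 reads. FLC1 differed: 76.01% to 78.7% of its 621 bases were covered in all 6 libraries with 47 to 97 reads, leaving 132 to 149 bases without a read. Bra022475 reached 98.1% with 36 reads in msm 1. How FLC1 reads lie along the gene was not analysed here. Reads that fit several copies are not in the counts, so the level of a copy may be understated by an amount that differs between copies.

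**Figure D5:**
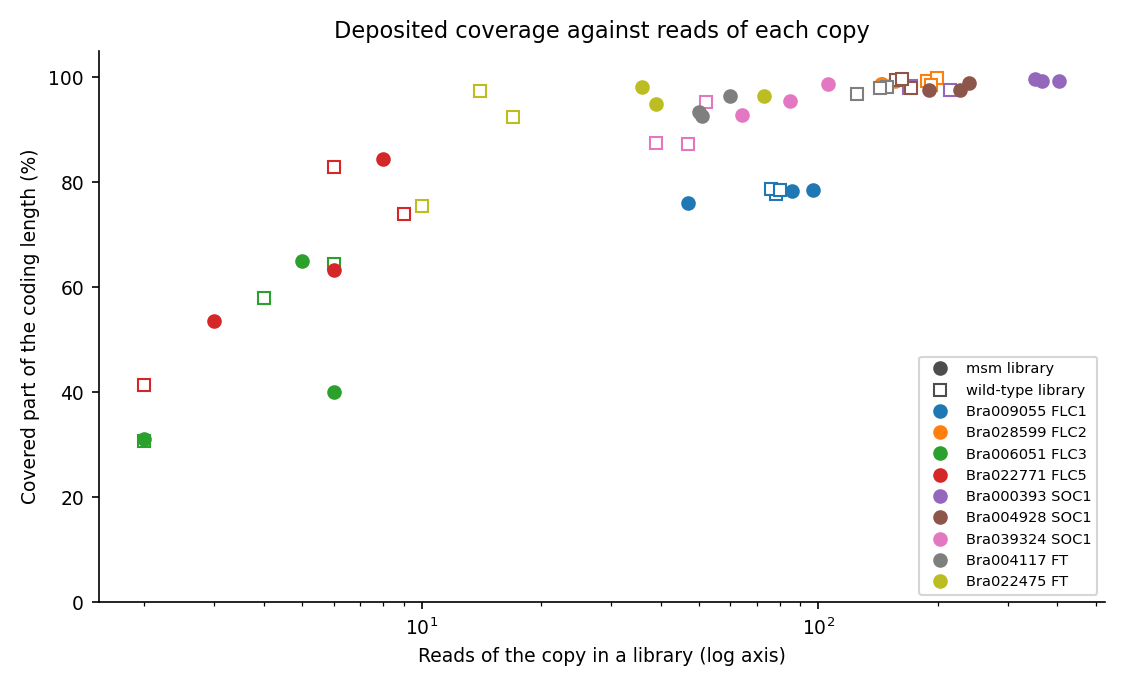
Covered part of the coding length (%) against reads (log axis) for each of the 9 copies in each library, filled circles for msm and open squares for wild type. FLC1 stays at 76.01% to 78.7% in all 6 libraries, whereas Bra022475 reaches 94.9% to 98.1% with 36 to 73 reads in msm libraries and FLC3 lies at 30.6% to 64.98% with 2 to 6 reads.

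The genes whose levels followed the leading copies most closely over the 6 libraries were sought among all tested genes, by Pearson's correlation of TMM-scaled log2 CPM (counts scaled to library size), as a description. For FLC2 this was Bra026420 (r = 0.9998), which averaged 2.05 ± 0.214 RPKM in msm and 6.82 ± 0.704 RPKM in wild type (SD, n = 3 each), a larger change than that of FLC2 itself. For Bra000393 it was Bra013037 (r = 0.999), with 3.61 ± 0.395 RPKM in msm and 1.80 ± 0.251 RPKM in wild type (SD, n = 3 each). For Bra004117 it was Bra021280 (r = 0.9999), with 0.326 ± 0.0821 RPKM in msm and 3.95 ± 0.784 RPKM in wild type (SD, n = 3 each). Its msm level was close to the mean of FLC3 in msm (0.285 RPKM), a copy near the limit of detection. Each of these r is the highest among 29103 genes; an r of at least 0.95 was reached by 15.2%, 3.9% and 16.01% of them with FLC2, Bra000393 and Bra004117. The 6 points share 2 groups, and the identity of these genes was not identified here.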

How the data were processed

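Per the file headers, the authors deposited for each library the count of uniquely assigned reads per gene, the gene length, the covered percentage of that length, and RPKM. The RPKM values followed from the deposited counts, lengths and header totals to a relative difference of 6.4e-15. All lengths are multiples of 3 (coding lengths). Coverage passed 100% in 14 values. DESeq appears in the submitters' processing notes, with its role unstated. The sources used here name no aligner, read counter, annotation or genome build, and do not say whether strand was used. A gene without a row was given 0 reads. Of 35421 identifiers, 1 matched the RefSeq gene table (assembly CAAS_Brap_v3.01) and none of the 9 copies did; no sequence was used here.

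Counts were compared with edgeR 4.0.16 (R 4.3.3; TMM, default expression filter, robust quasi-likelihood fit, Benjamini-Hochberg adjustment over all tested genes). A gene was called at an adjusted p below 0.05 and at least 2-fold. Standard errors were taken from the fold change and its F value. For ratios between copies, exact permutation tests were run (two-sided, SciPy 1.17.1). Alternatives were DESeq2 1.42.0, limma 3.58.1 on log2 RPKM with pseudocounts of 1 and 0.1, relative log expression and total-count scaling, other filters, leaving out each library and the replicate number as a block. The fits were tested on simulated counts with 100 genes changed 2.5-fold and 100 changed 4-fold, evenly up and down. Of these, edgeR called 98 and 96, DESeq2 92 and 94, and limma 73 and 91. So few and balanced changes are unlike these data, where 17.2% of genes were called and more were lower. The simulation therefore does not test the scaling. Libraries within msm and within wild type were further apart than counting alone gives (chi-square per degree of freedom 3.08 to 9.17 over genes with at least 20 reads), so each was counted as 1 sample. Poisson intervals cover counting error only. The named genes were all 9 copies and, for the strongest copy of each family, the tested gene of most similar pattern. The copies, lists and tests were chosen with earlier results of these data known.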

Additional observations from a re-analysis of the deposited data

How the results depend on the processing

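Each of the 7 tested copies kept its sign and its side of the call (adjusted p below 0.05 and at least 2-fold) under all 14 alternative fits. For copies that were not called, this means only that they stayed uncalled. The log2 fold change of FLC1 ran from -0.45 to -0.001, and its adjusted p was at least 0.0898 in these fits. Its direction is therefore not established. Without the fold threshold 3 copies were higher and 2 lower, in place of 1 and 1. At the adjusted p alone, 2 to 4 were higher and 2 lower over the fits, the difference coming from the SOC1 copies Bra039324 and Bra004928. The log2 fold change ran from -1.70 to -1.20 for Bra004117, from 1.16 to 1.82 for Bra022475, and from 0.71 to 0.99 for Bra000393. FLC3 and FLC5, below 0 in edgeR without a filter, were 0.0188 and 0.00289 in limma with a pseudocount of 1 RPKM. With 0.1 RPKM they were 0.0636 and 0.0664. Limma was run on RPKM, which is scaled by total reads. The median log2 fold change of all tested genes was 0.16 and 0.21 in these limma fits, against -0.008 in edgeR without a filter. The cause of the change in sign was not tested. With 2 to 9 reads per library, FLC3 and FLC5 allow no statement on direction. The summed level in RPKM (log2, msm over wild type) was -0.29 for FLC, 0.76 for SOC1 and -0.60 for FT. With TMM scaling it was -0.50 for FLC, 0.55 for SOC1 and -0.81 for FT.

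With 1 library left out, the log2 ratio of the FT copies differed by -3.46 to -2.81 (msm minus wild type) and that of Bra000393 over Bra004928 by 0.52 to 0.72. Ratios with few reads or small differences changed sign: FLC2 over FLC5 (-0.98 to 0.13), FLC1 over FLC5 (-0.67 to 0.38), FLC1 over FLC3 (-0.80 to 0.30), FLC5 over FLC3 (-0.76 to 0.63) and Bra000393 over Bra039324 (-0.0917 to 0.37). Only the numbers 1 and 2 are shared by both groups, and nothing in the labels says that they pair libraries (correlations of deviations -0.213 and 0.167). With the replicate number as a block, 1 copy was higher and 1 lower, with log2 fold changes of 1.39 for Bra022475, -1.55 for Bra004117 and -0.001 for FLC1. In that fit the group difference rested on the libraries numbered 1 and 2. A library whose number occurs in 1 group only, such as msm 3, did not inform it.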
